A study of Mus musculus with 4 samples.

Results

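The 9 genes described here encode secreted lipid carriers, one lipase and receptors that take the carriers up. They are Apoe, Apod, Clu, Ptgds and Apoc1 among the carriers, Lpl as the lipase, and Lrp1, Vldlr and Lrp8 among the receptors, and they are 9 of the 55401 genes listed. They were chosen by name, in part because Apod and Ptgds rose in the mutant libraries while myelin genes fell. The fold changes of Apod and Ptgds are therefore given as descriptions with no test. The other 7 were added for what they encode, with the same comparison already known. RNA from mouse optic nerves was sequenced in 4 libraries, 2 of genotype Dor WT, called controls below, and 2 of genotype Dor cKO, a conditional knockout, called mutants below. The one comparison that follows is mutants against controls. The title of the study concerns metabolism in mature oligodendrocytes and myelination.

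What limits these groups as a model can be stated only in part. The driver of the conditional deletion, the sex, age and strain of the mice and the number of animals behind each library are not stated in the labels. A label that looks like an age stands in the table names of the controls and is absent from those of the mutants. If the groups differed in age, age and genotype cannot be told apart in these libraries. Nothing in the labels says that the 2 libraries of a genotype came from separate animals, so the p-values measure only the spread between these samples, which may be technical.

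Lipids released or taken up by glia travel in small lipoprotein particles. In the nervous system the particles are built mainly on apolipoprotein E and clusterin, which astrocytes secrete, and they are taken up by a family of large cell surface receptors to which Lrp1, Vldlr and Lrp8 belong. Lipocalins are a separate family of small secreted proteins that fold into a cup and carry single lipophilic molecules. Apolipoprotein D is a lipocalin despite its name. The product of Ptgds is both a lipocalin and the enzyme that makes prostaglandin D from prostaglandin H, and it is known as an abundant product of the leptomeninges, the inner coverings of the brain and optic nerve, and of oligodendrocytes.

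Total expected counts were between 17263830 and 21595832 per library, where reads that fit several genes are divided among them. A floor of 3 counts is between 0.138 and 0.173 CPM, which are counts scaled to library size. The 2 libraries of each genotype differed by more than counting noise, with a chi-square per degree of freedom of 2.62 for the controls and 2.14 for the mutants, so none was taken for one library deposited again. This does not show whether they came from separate animals. The mean fragment length was 259.6 and 260.0 bases in the controls and 245.5 and 245.3 bases in the mutants, so fragment length differs between the genotypes, and its part in the results was not tested beyond the correction for transcript length and GC content used as an alternative. Trp53inp2, of which Dor is a known synonym, had 138 and 134 CPM in the controls and 105 and 107 CPM in the mutants, a log2 fold change of -0.36 (SE 0.04, edgeR adjusted p = 2.73e-08). Counts of this kind do not resolve exons, so the deletion itself was not seen. Of 16751 genes tested, 2399 were higher in the mutants, which is 14.3%, and 2248 were lower, which is 13.4%.

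In 5 of the 9 genes the mutants lay above the controls and in 4 below, and in none of them did the CPM values of the genotypes overlap. Both mutant libraries were above both control libraries for Ptgds, Apod, Apoe, Clu and Lrp1, and below both for Apoc1, Lpl, Vldlr and Lrp8. Over all genes tested, 30.2% had both mutant libraries above both control libraries and 30.5% had both below, so non-overlap by itself is common here. All 9 passed the filter on low counts. Of the 7 that were not picked for their change, 3 were called higher, 3 were called lower and 1 was not called at an adjusted p under 0.05. At a fixed biological coefficient of variation of 0.1 in place of the estimated 0.035, the calls of Apoe, Clu, Lrp1 and Lrp8 ended, with edgeR adjusted p-values of 0.241, 0.304, 0.288 and 0.120. Because the genes were gathered with this comparison known, nothing is read from those counts against the 14.3% and 13.4% over all genes. In bulk RNA, fewer cells of a type and less RNA per cell cannot be told apart, which holds for every value below.

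**Figure D1:**
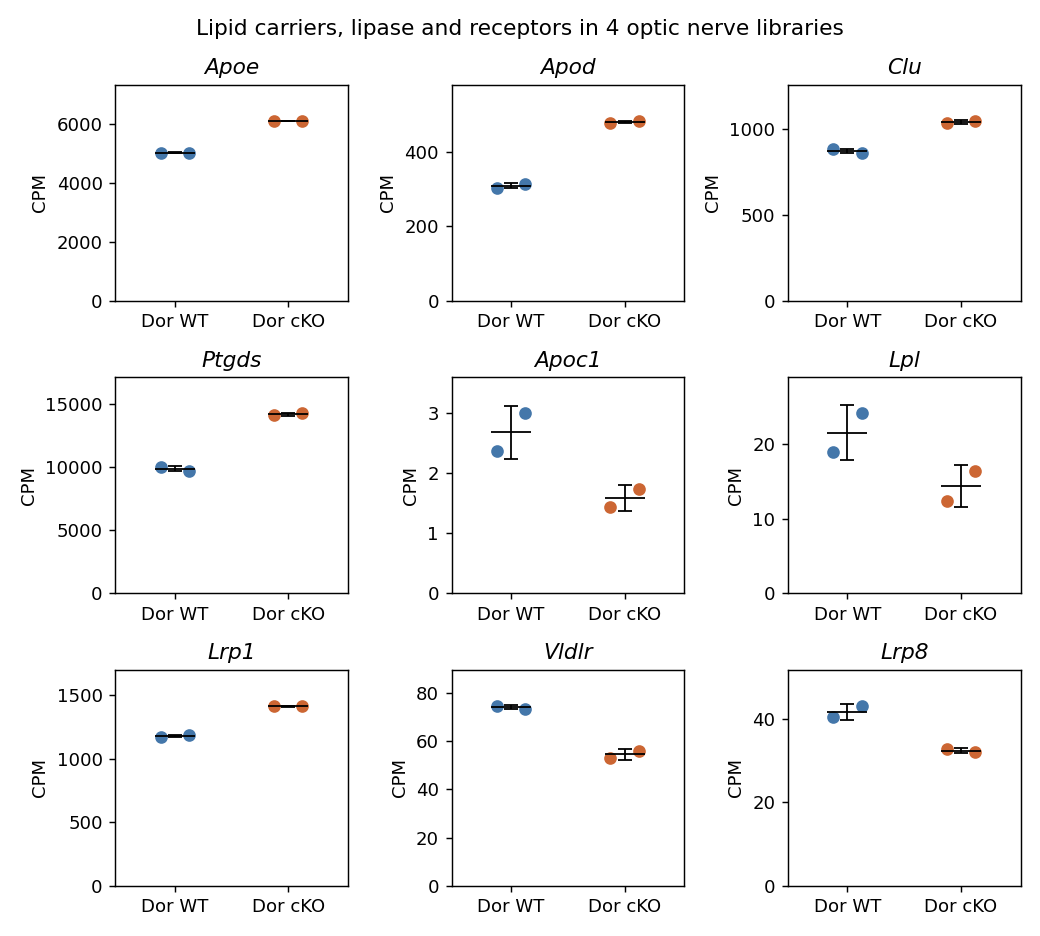
Each panel gives the CPM of one gene in the 4 optic nerve libraries on a linear axis that starts at 0, with blue points for Dor WT, orange points for Dor cKO and black bars for the mean with its SD over 2 libraries. The points of the genotypes do not overlap in any panel, with 5 genes higher and 4 lower in Dor cKO.

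Ptgds, the prostaglandin D synthase and lipocalin (ENSMUSG00000015090.13; GRCm38 chromosome 2, 25466709 to 25470046, minus strand), had the highest level of the 9 per length. It had 9997 and 9705 CPM in the controls and 14066 and 14233 CPM in the mutants, a mean of 9851 ± 206 (SD, n = 2) against 14149 ± 118 (SD, n = 2). Both mutant libraries were far above both control libraries, by 1.44-fold, a log2 fold change of 0.52 (SE 0.01). Per length, in TPM, Ptgds stood in rank 2 of all genes in each of the 4 libraries, at 26849 and 26167 TPM in the controls and 36594 and 36975 TPM in the mutants. One gene therefore took 2.68% and 2.62% of all TPM in the controls and 3.66% and 3.70% in the mutants. The fold change of Ptgds was lower, at 0.44, with the trend on transcript length and GC content removed, and 0.47 on log2(TPM + 1).

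Apod, the lipocalin apolipoprotein D (ENSMUSG00000022548.14; chromosome 16, 31296192 to 31314808, minus strand), had the largest rise of the 9 on the log2 scale. It had 304 and 314 CPM in the controls and 478 and 483 CPM in the mutants, a mean of 309 ± 7.72 against 480 ± 3.54 (SD, n = 2 each). The difference was 1.55-fold, a log2 fold change of 0.64 (SE 0.02), and neither mutant library came near the range of the controls. Of all genes tested, 96.1% had a lower log2 fold change than Apod and 94.2% had a lower one than Ptgds. Because both were picked for their rise, a high place among all genes follows from the choice. In TPM, Apod was at 500 and 509 in the controls and 766 and 778 in the mutants, in rank 216 and 215 against 147 and 146. The TPM of Ptgds was 53.7 and 51.4 times that of Apod in the controls and 47.8 and 47.6 times in the mutants.

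Among genes of at least 50 CPM outside the 9, those whose 4 centred log2 CPM values lay nearest to Apod by Euclidean distance were Igfbp6 at 0.029, Cyp26b1 at 0.036 and Hist1h1c at 0.037. The nearest to Ptgds were H2-K1 at 0.016, Slc22a8 at 0.017 and Slco3a1 at 0.018. Igfbp6 encodes a binding protein of insulin-like growth factors and had 257 and 267 CPM against 406 and 400. Slc22a8 encodes an organic anion transporter and had 164 and 161 CPM against 230 and 236. With 4 libraries these distances describe only the size of the gap between genotypes and the small spread within them.

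The promoter windows of Apod and Ptgds are shown next to those of the receptors Lrp1, which rose, and Vldlr, which fell. Apod and Ptgds were picked because they rose, so their shared direction follows from that choice. Each runs from 250 bases before to 50 bases after a transcription start in the RefSeq promoter table for GRCm38.p6, written in the direction of transcription, and capitals mark matches to a motif on either strand. The windows are Apod on the minus strand at chr16:31314759-31315058, Ptgds on the minus strand at chr2:25469700-25469999, Lrp1 on the minus strand at chr10:127621099-127621398 and Vldlr on the plus strand at chr19:27216234-27216533. Of the 9 genes, 6 were in the table, with 11 windows, and the window nearest the annotated 5' end was taken; for Ptgds its start is 297 bases from that end.
Apod: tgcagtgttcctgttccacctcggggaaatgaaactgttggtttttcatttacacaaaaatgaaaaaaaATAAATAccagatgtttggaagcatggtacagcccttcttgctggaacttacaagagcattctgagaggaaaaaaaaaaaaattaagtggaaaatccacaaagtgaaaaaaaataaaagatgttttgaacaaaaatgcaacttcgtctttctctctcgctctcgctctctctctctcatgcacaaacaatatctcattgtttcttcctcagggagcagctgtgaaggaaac
Ptgds: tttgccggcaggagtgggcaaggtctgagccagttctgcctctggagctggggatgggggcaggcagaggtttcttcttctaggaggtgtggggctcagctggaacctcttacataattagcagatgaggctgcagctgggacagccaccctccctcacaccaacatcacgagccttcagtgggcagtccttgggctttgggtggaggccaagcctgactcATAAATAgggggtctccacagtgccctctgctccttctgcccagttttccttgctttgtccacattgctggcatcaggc
Lrp1: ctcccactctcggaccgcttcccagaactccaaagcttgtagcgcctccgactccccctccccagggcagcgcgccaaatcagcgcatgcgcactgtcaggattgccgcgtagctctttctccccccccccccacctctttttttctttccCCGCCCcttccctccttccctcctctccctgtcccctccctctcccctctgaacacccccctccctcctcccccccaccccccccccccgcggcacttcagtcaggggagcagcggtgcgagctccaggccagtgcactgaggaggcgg
Vldlr: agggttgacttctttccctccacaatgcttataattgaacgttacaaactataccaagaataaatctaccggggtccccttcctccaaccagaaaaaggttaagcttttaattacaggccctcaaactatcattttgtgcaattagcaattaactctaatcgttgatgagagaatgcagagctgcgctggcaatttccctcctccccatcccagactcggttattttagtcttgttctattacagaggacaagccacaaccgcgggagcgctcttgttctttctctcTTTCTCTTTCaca

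The motifs searched were TATAAA of the TATA box, CCAAT of the CCAAT box, GGGCGG of the GC box, AGGTCA of nuclear receptor sites and GAAANNGAAA of the interferon response core, and after the windows had been read also ATAAATA, a run like the TATA box. Of the 32851 windows in the table they are present in 13.6%, 37.4%, 35.7%, 16.3%, 3.44% and 5.60%. The windows of Apod and Ptgds hold none of the first 5. Both hold ATAAATA, at position -181 in Apod and at -29 in Ptgds, counted from the start site. Lrp1 holds GGGCGG on the opposite strand at -99, and Vldlr holds GAAANNGAAA on the opposite strand at 38. In base composition the pair differ. The window of Apod is 37.3% G and C, lower than all but 6.19% of promoters, while that of Ptgds is 57.7% G and C with 2 CpG, a ratio of observed to expected CpG of 0.080 that is undercut by 10.6% of promoters. A match is a string of letters and was not tested as a binding site.

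Apoe, the main lipid carrier apolipoprotein of the nervous system, is ENSMUSG00000002985.16, on chromosome 7 at 19696109 to 19699188 (GRCm38, minus strand). It had 5004 and 5019 CPM in the controls and 6081 and 6092 CPM in the mutants, a mean of 5011 ± 11.1 against 6086 ± 8.02 (SD, n = 2 each). The genotypes were apart by far more than the libraries within them, and Apoe rose 1.21-fold, a log2 fold change of 0.28 (SE 0.01, edgeR adjusted p = 7.51e-19). In TPM it was in rank 8 and 9 in the controls and rank 6 in both mutant libraries. The TPM of Ptgds was 2.36 and 2.28 times that of Apoe in the controls and 2.75 and 2.79 times in the mutants.

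Clu, which encodes clusterin, a chaperone-like apolipoprotein that is released by astrocytes, is ENSMUSG00000022037.15, on chromosome 14 at 65968483 to 65981547. It had 882 and 862 CPM in the controls and 1034 and 1048 CPM in the mutants, and rose 1.19-fold, a log2 fold change of 0.26 (SE 0.02, edgeR adjusted p = 1.74e-12). The ratio of their TPM values, Apoe to Clu, was 12.6 and 12.9 in the controls and 12.8 and 12.6 in the mutants, so it overlapped between the genotypes.

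Apoc1, a small apolipoprotein encoded beside Apoe, had the fewest counts of the 9. It is ENSMUSG00000040564.14, on chromosome 7 at 19689481 to 19692660, on the same strand as Apoe, and 41 and 65 expected counts in the controls stood against 30 and 36 in the mutants. That is 2.36 and 2.99 CPM against 1.43 and 1.73 CPM, so the libraries do not overlap, but the counts are few. The log2 fold change was -0.76 (SE 0.33), 1.70-fold lower, and edgeR's adjusted p was 0.084, so Apoc1 was not called. The log2 fold changes were -0.92 without Dor WT replicate 1 and -0.58 without Dor WT replicate 2, with edgeR adjusted p-values of 0.067 and 0.363. It was called with a coefficient of variation set at 0.1 in edgeR's likelihood ratio test (adjusted p = 0.042) and, in edgeR, after correction for transcript length and GC content (adjusted p = 0.041).

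Of the genes beside Apoe on chromosome 7, none was called. Apoc2 had 2 and 4 expected counts in the controls and 3 and 6 in the mutants, and Apoc4 had 1 and 2 against 1 and 4, so both were too low to be tested. Tomm40, which encodes a channel of the mitochondrial outer membrane, had 45.6 and 44.7 CPM against 45.4 and 44.6 CPM, and its log2 fold change was -0.003 (SE 0.06, edgeR adjusted p = 0.978). Nectin2, a cell adhesion gene, had a mean of 17.6 ± 0.347 CPM against 20.6 ± 0.211 CPM (SD, n = 2 each), a log2 fold change of 0.23 (SE 0.10, edgeR adjusted p = 0.096). The TPM of Apoe was 604 and 479 times that of Apoc1 in the controls and 1235 and 999 times in the mutants.

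Lpl, the lipase that frees fatty acids from lipoprotein particles, fell. It is ENSMUSG00000015568.16, on chromosome 8 at 68880491 to 68907448 and had 329 and 524 expected counts in the controls against 260 and 339 in the mutants. In CPM these were 18.9 and 24.1 against 12.4 and 16.3, so the groups do not overlap, with a mean of 21.5 ± 3.67 against 14.4 ± 2.79 (SD, n = 2 each). Its log2 fold change was -0.59 (SE 0.13, edgeR adjusted p = 0.002), 1.51-fold lower. Without one library at a time the log2 fold change was between -0.80 and -0.40, and the call held each time. On log2(TPM + 1) it was -0.52 with a limma adjusted p of 0.089, which ends the call.

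Of the 3 receptors, Lrp1 rose while Vldlr and Lrp8 fell. Lrp1, a large endocytic receptor for Apoe particles and many other ligands, is ENSMUSG00000040249.15, on chromosome 10 at 127538161 to 127621148. It had 1173 and 1187 CPM in the controls and 1412 and 1416 CPM in the mutants and rose 1.20-fold, a log2 fold change of 0.26 (SE 0.02, edgeR adjusted p = 6.80e-14). Per length, its TPM was 10.7 and 8.31 times that of Vldlr in the controls and 15.2 and 14.6 times in the mutants.

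Vldlr, the very low density lipoprotein receptor, which also serves as a receptor of reelin, is ENSMUSG00000024924.14, on chromosome 19 at 27216484 to 27254231. It had 74.7 and 73.5 CPM in the controls and 52.9 and 56.2 CPM in the mutants, a mean of 74.1 ± 0.876 against 54.5 ± 2.32 (SD, n = 2 each). Its log2 fold change was -0.44 (SE 0.06, edgeR adjusted p = 2.76e-07), 1.36-fold lower. Lrp8, the apolipoprotein E receptor 2, is the other reelin receptor and is ENSMUSG00000028613.15, on chromosome 4 at 107802261 to 107876840. It had 40.4 and 43.1 CPM in the controls and 32.9 and 32.0 CPM in the mutants and had a log2 fold change of -0.37 (SE 0.07, edgeR adjusted p = 1.91e-04), 1.29-fold lower. On log2(TPM + 1) neither call was made, with log2 fold changes of -0.34 for Vldlr (limma adjusted p = 0.174) and -0.23 for Lrp8 (limma adjusted p = 0.402). The TPM of Lrp8 was 12.06 and 14.94 in the controls and 10.38 and 12.35 in the mutants, which overlap.

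Per length, the 9 genes span a wide range of levels. In every library the order in TPM was Ptgds, Apoe, Clu, Apod and Lrp1, and the 4 genes that lay lower in the mutants followed. In the controls Apoc1 was at 18.87 and 23.96 TPM and Vldlr at 17.26 and 21.44 TPM, so these neighbours overlap, followed by Lrp8 and then Lpl at 9.44 and 10.25 TPM. In the mutants Vldlr was at 14.61 and 15.31 TPM, Apoc1 at 10.77 and 13.28 TPM, which overlaps Lrp8, and Lpl at 5.90 and 7.28 TPM. Together the 9 genes held 3.99% and 3.93% of all TPM in the controls and 5.20% and 5.23% in the mutants.

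**Figure D2:**
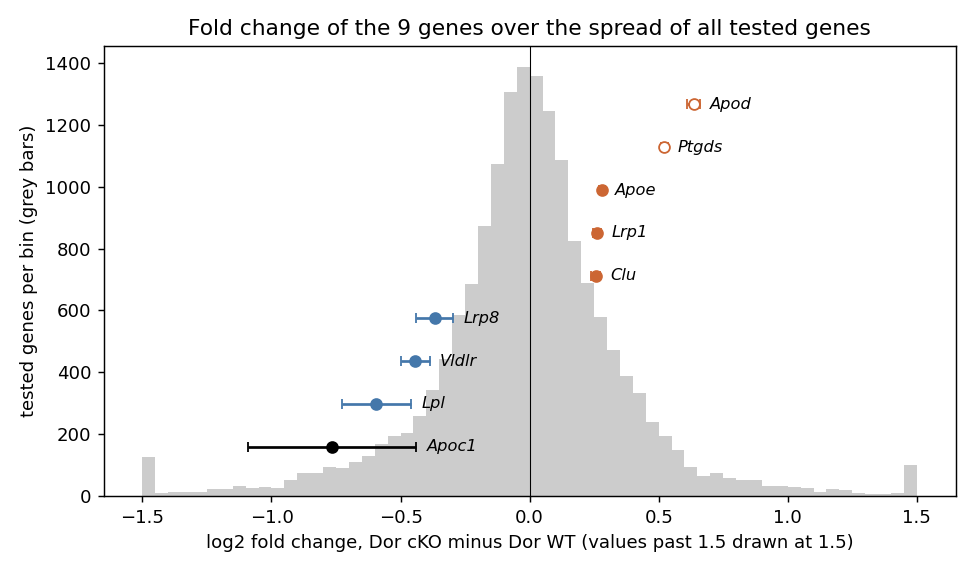
The x axis gives the log2 fold change, Dor cKO minus Dor WT, with points and SE bars for the 9 genes and grey bars for the number of tested genes per bin, values past 1.5 being drawn at 1.5. Filled orange points were called higher, blue points lower and the black point not called. Open points with an orange edge are Apod and Ptgds, which have no test, so their colour gives only the direction. The height of a point only separates the labels. Apod at 0.64 and Ptgds at 0.52 lie to the right of the other 7, which follows from their choice for having risen. Apoc1 at -0.76 lies farthest left with the widest bar.

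Transcript length bears on the receptors. The tables give for each gene a length weighted by the share of its isoforms, and for Vldlr it was 6535 and 5236 bases in the controls and 5459 and 5529 in the mutants. For Lrp8 it was 5115 and 4453 bases against 4805 and 3974. The longest value was 1.29 times the shortest for Lrp8, 1.25 times for Vldlr, 1.16 times for Lpl and 1.06 times for Lrp1, and at most 1.02 times for the other 5. In Vldlr, Lrp8 and Lpl the lengths of the genotypes overlap, so the data show no separation by genotype. Lrp1 was 9496 and 9926 bases in the controls and 9382 and 9374 in the mutants, with no overlap. The lengths of Apoe, Clu and Apoc1 did not overlap either, with the longest value at most 1.02 times the shortest. How many of all genes tested have lengths apart was not counted, so nothing about genotype is read from this. The lengths are given as values, and their differences were not tested.

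**Figure D3:**
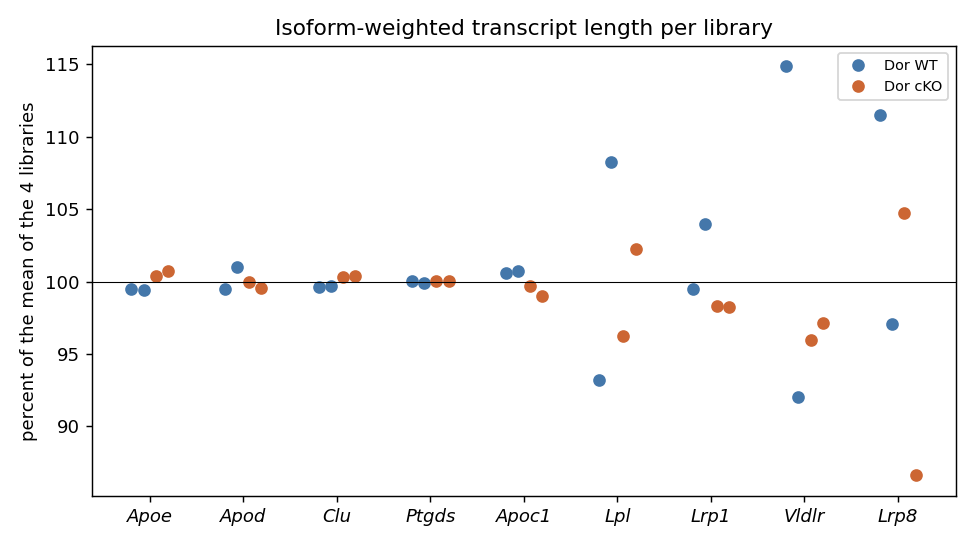
The y axis gives the isoform-weighted length of each gene in each library as a percent of the mean of the 4 libraries, with blue points for Dor WT and orange points for Dor cKO. The points of Vldlr, Lrp8 and Lpl spread most, and those of the carriers lie close to the line at 100.

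Since the levels of the 9 genes are summed over all cells of the nerve, each was set against the summed markers of several cell types. The tissue label was checked against defining markers. Mbp of oligodendrocytes was at 15674 and 15621 CPM in the controls and Gfap of astrocytes was at 9553 and 9511 CPM. Of 13 markers of arachnoid and meningeal fibroblasts 12 were tested, and they held 11220 and 11292 CPM in the controls and 14529 and 14489 CPM in the mutants, and 11 of the 12 were called higher and 0 lower. The 10 oligodendrocyte markers held 30887 and 30758 CPM in the controls and 17853 and 17775 CPM in the mutants and all 10 were lower, which is the fall of myelin genes that the choice of genes used. The 10 astrocyte markers held 13964 and 13949 CPM against 15306 and 15342 CPM, with 8 higher and 1 lower. The 8 precursor markers held 1785 and 1740 CPM against 1269 and 1267 CPM, with 0 higher and 7 lower. These are plain sums of CPM, so abundant markers weigh most in them. In Dor WT replicate 1, Gfap held 9553 of the 13964 CPM of the astrocyte sum. Mbp held 15674 of the 30887 CPM of the oligodendrocyte sum there.

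As a percent of the summed meningeal markers, Ptgds was 89.1% and 85.9% in the controls and 96.8% and 98.2% in the mutants, and Apod was 2.71% and 2.78% against 3.29% and 3.33%. The ratio of the genotypes, mutants over controls, was 1.11 for Ptgds and 1.21 for Apod against that list. Against astrocyte markers the ratios were 1.31 and 1.42, and against oligodendrocyte markers, whose sum fell, they were 2.49 and 2.69. Both genes were picked because they rose while myelin genes fell, so a ratio above 1 against oligodendrocyte markers follows from the choice. Against border macrophage markers the ratios were 1.02 and 1.11, and there the libraries of the genotypes overlapped for Ptgds. In CPM they were 1.44 and 1.55. The size of the rise per marker thus depends on the list, and for Ptgds so does the separation of the genotypes.

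Apoe, Clu and Lrp1 had ratios of 1.11, 1.09 and 1.09 against astrocyte markers and of 0.942, 0.926 and 0.930 against meningeal markers. Against oligodendrocyte markers their ratios were 2.10, 2.06 and 2.07. For these 3 genes the side of 1 on which the ratio lies thus changes with the list.

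Vldlr and Lrp8 had ratios of 0.670 and 0.707 against astrocyte markers and of 0.571 and 0.602 against meningeal markers. Against oligodendrocyte markers the ratios were 1.27 and 1.34, and against precursor markers 1.02 and 1.08. Lpl had ratios of 0.607 against astrocyte, 0.518 against meningeal, 1.15 against oligodendrocyte, 0.925 against precursor, 0.590 against microglia and 0.475 against border macrophage markers. Apoc1, on few counts, had ratios of 0.538, 0.459, 1.02, 0.820, 0.523 and 0.421 against the same lists in that order. All 4 ratios lay below 1 against astrocyte and meningeal markers and above 1 against oligodendrocyte markers. Against oligodendrocyte markers, however, the libraries of the genotypes overlapped for Lpl and Apoc1. Against precursor markers they overlapped for Vldlr, Lpl and Apoc1. These ratios describe the libraries and lean on the most abundant markers of each sum, such as Gfap and Mbp. The part of changed cell makeup in the results was not tested.

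**Figure D4:**
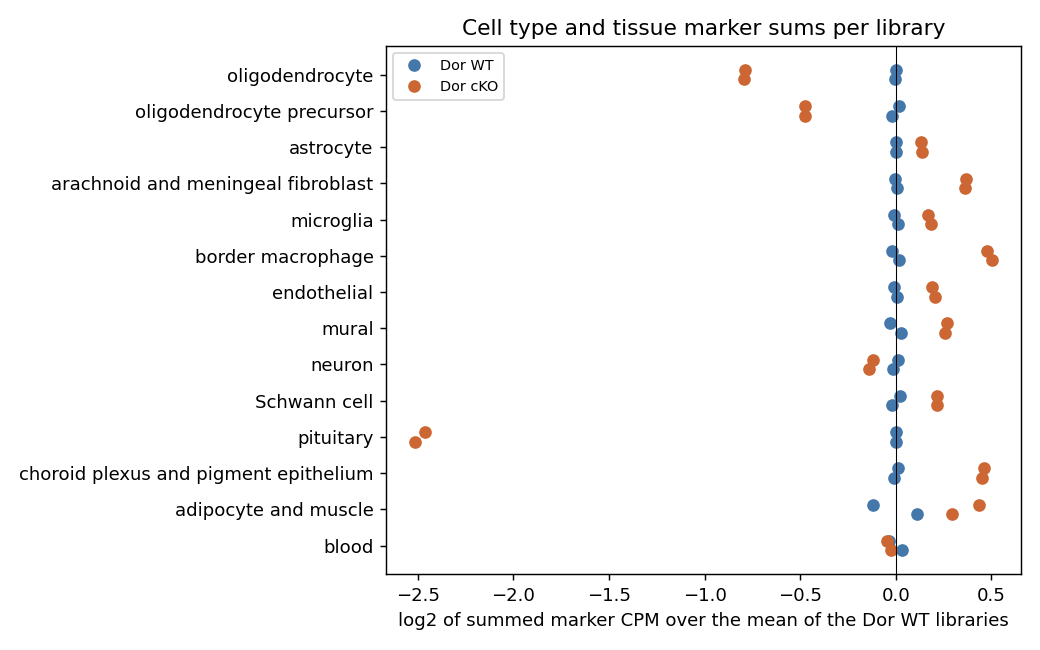
The x axis gives the log2 of the summed CPM of each marker list over the mean of the Dor WT libraries, with blue points for Dor WT and orange points for Dor cKO, 1 row for each of 14 lists. The Dor cKO sums of meningeal, border macrophage, astrocyte, microglia, endothelial, mural, Schwann cell, choroid plexus and adipocyte and muscle markers lie to the right of both Dor WT points, those of oligodendrocyte, precursor, neuron and pituitary markers to the left, and the blood sums overlap.

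Sums of the other marker lists, except blood, also lay apart by genotype. Over all genes tested, 14.3% were higher and 13.4% were lower, and these shares stand beside every marker count. Schwann cell markers, with 16.7% higher, and neuron markers, with 12.5% higher, were near the former share. The mural list had a median log2 fold change of 0.005. The border macrophage list, led by Mrc1 and F13a1, held 236 and 242 CPM in the controls and 332 and 338 CPM in the mutants, with 6 of 8 markers higher. The pituitary list held 132 and 132 CPM in the controls and 24.0 and 23.2 CPM in the mutants, with all 6 tested markers lower and Cga at 0 in both mutant libraries. The microglia sum was 724 and 734 CPM against 820 and 828 CPM, with 4 of 10 higher and 1 lower, and the endothelial sum 258 and 261 against 296 and 299 CPM, with 4 of 8 higher and 1 lower. Choroid plexus and pigment epithelium markers held 58.8 and 57.9 CPM against 80.5 and 79.7 CPM, with 2 of 7 tested markers higher and Tyr at 0 in all 4 libraries. Mural cell sums were 682 and 710 CPM against 838 and 832 CPM, with 2 of 8 higher and 2 lower, and neuron sums were 285 and 279 CPM against 259 and 256 CPM, with 1 of 8 higher and 2 lower. Schwann cell sums were 195 and 189 CPM against 222 and 223 CPM, with 1 of 6 higher. Blood sums overlapped between the genotypes, from 633 to 669 CPM, with 2 of 10 markers higher and 2 lower. Adipocyte and muscle markers summed to 4.49 to 6.57 CPM, with 0 of 3 tested markers called and Myh4 at 0. The part of these tissues in the values of the 9 genes was not tested.

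The surrounding pathway was followed in 8 lists of 105 genes, none of them among the 9, of which 78 were tested. Of these, 28 were higher, which is 35.9% against 14.3% over all genes tested, 11 were lower, which is 14.1% against 13.4%, and 39 were not called. The median log2 fold change was 0.14, against -0.004 over all genes tested. The lists were drawn up with earlier results known and no test of a list was made. The same 14.3% and 13.4% stand beside the counts of each single list below, and nothing is read from those counts. In limma on log2(TPM + 1) the counts were 9 higher and 2 lower, and with the coefficient of variation fixed at 0.1 they were 9 and 4. Of the genes named in the paragraphs on these lists, Orm2, Sdc4, Lcat, Pltp, Bsg and Slc22a17 also kept their call on log2(TPM + 1), and Apof, Apol9a, Rbp4, Orm2, Lrp1b, Lrp2, Abcg1 and Ptgs2 kept it at the fixed coefficient. Of the 39 called genes, only 4 kept their call in all 15 alternatives, namely Lcn2, Dab2, Pcsk6 and Stra6.

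Among 4 tested lipocalins 3 were higher and 0 were lower. Lcn2, which encodes a siderophore-binding lipocalin of reactive glia, had 10.6 and 7.46 CPM in the controls and 22.5 and 21.4 CPM in the mutants, 2.45-fold higher, a log2 fold change of 1.29 (SE 0.13, edgeR adjusted p = 8.18e-09). Rbp4, the retinol-binding lipocalin, had 13.9 and 16.1 CPM against 24.7 and 21.4 CPM, a log2 fold change of 0.61 (SE 0.11, edgeR adjusted p = 5.14e-05). Orm2, named after its values were seen, had 3 and 7 expected counts against 20 and 31, and its call was lost without Dor WT replicate 1 (edgeR adjusted p = 0.067) or Dor cKO replicate 2 (edgeR adjusted p = 0.189). Of 5 tested apolipoproteins outside the 9, 2 were higher, Apof and Apol9a, both also named after their values were seen. Apof had 2.13 and 2.07 CPM against 3.81 and 3.47 CPM, a log2 fold change of 0.79 (SE 0.27, edgeR adjusted p = 0.030), and the call was lost without any one library, with adjusted p-values from 0.058 to 0.195. The counts of Apol9a are shared with a near-identical copy and are uncertain.

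Of the 13 other members of the receptor family, all tested, 5 were higher and 4 were lower, with a median log2 fold change of 0.006. Lrp10 rose by 0.26 (SE 0.03), Lrp6, a Wnt co-receptor, rose by 0.21 (SE 0.03), Lrp5 by 0.30 (SE 0.05) and Lrp4 by 0.24 (SE 0.06). Sorl1, a sorting receptor of the trans-Golgi network, fell by 0.31 (SE 0.05). Lrp1b, a large relative of Lrp1, had a mean of 22.7 ± 0.558 CPM in the controls and 16.3 ± 1.41 CPM in the mutants (SD, n = 2 each) and fell by 0.48 (SE 0.10, edgeR adjusted p = 5.22e-04). Its value on log2(TPM + 1) was -0.06 (limma adjusted p = 0.834). Lrp11 fell by 0.23 (SE 0.07, edgeR adjusted p = 0.015), a call lost without Dor WT replicate 2, where the value was -0.19, or Dor cKO replicate 1, where it was -0.15. Lrp2 fell by 0.54 (SE 0.18, edgeR adjusted p = 0.023), a call lost without Dor WT replicate 1, where the value was -0.31, or without either mutant library. Ldlrad3 rose by 0.16 (SE 0.05), a call lost without Dor cKO replicate 2 (edgeR adjusted p = 0.122).

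Of 12 partners and regulators of the receptors 4 were higher and 3 were lower. Dab2, an adaptor for receptor uptake, rose by 0.46 (SE 0.03, edgeR adjusted p = 1.98e-12), with 149 and 151 CPM in the controls and 209 and 205 CPM in the mutants. Lrpap1, the chaperone that keeps these receptors from binding ligand early, rose by 0.22 (SE 0.03). Reln, which encodes reelin, the ligand of Vldlr and Lrp8, had a log2 fold change of -0.13 (SE 0.04, edgeR adjusted p = 0.025), a call lost without Dor WT replicate 2 (edgeR adjusted p = 0.088) or Dor cKO replicate 2, where the value was -0.08 (edgeR adjusted p = 0.346). Furin, a convertase that processes these receptors, rose by 0.22 (SE 0.05). Pcsk6, a proprotein convertase, fell by 0.79 (SE 0.11, edgeR adjusted p = 2.33e-06), from 22.2 and 20.4 CPM to 13.2 and 11.4 CPM.

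Of 8 tested lipases and lipase partners 3 were higher and 0 were lower. Sdc4, a heparan sulphate proteoglycan, rose by 0.40 (SE 0.03) and Angptl4, an inhibitor of lipoprotein lipase, by 0.27 (SE 0.06), and Sdc1 by 0.32 (SE 0.07). Of 12 efflux and particle genes 3 were higher and 2 were lower. Pltp, a phospholipid transfer protein, rose by 0.34 (SE 0.03), and Lcat, which esterifies cholesterol on particles, by 0.35 (SE 0.06). Abcg1, a cholesterol exporter, fell by 0.52 (SE 0.12, edgeR adjusted p = 0.001). Abca1, the exporter that lipidates Apoe, had a log2 fold change of 0.06 (SE 0.03, edgeR adjusted p = 0.175) and was not called, except with the length and GC trend removed (edgeR adjusted p = 6.43e-04). Npc1 fell by 0.21 (SE 0.04). Soat1 was called higher but was not when Dor cKO replicate 1 was left out (edgeR adjusted p = 0.114).

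Of 12 other receptors of lipoproteins and lipocalins 5 were higher and 1 was lower. Stra6, the receptor of retinol-bound Rbp4, had 202 and 204 CPM in the controls and 308 and 306 CPM in the mutants, a log2 fold change of 0.60 (SE 0.03, edgeR adjusted p = 1.70e-16). Bsg rose by 0.23 (SE 0.02) and Stab1, a scavenger receptor, by 0.31 (SE 0.04). The value of Stab1 on log2(TPM + 1) was 0.04 (limma adjusted p = 0.780), which ends its call. Slc22a17, a receptor of Lcn2, had a log2 fold change of -0.13 (SE 0.02, edgeR adjusted p = 1.61e-04). Of 12 tested genes of the prostaglandin D pathway 3 were higher and 1 was lower. Ptgs2, the inducible cyclooxygenase that feeds prostaglandin synthases, had 4.89 and 3.50 CPM against 8.19 and 8.67 CPM, a log2 fold change of 1.02 (SE 0.19, edgeR adjusted p = 9.66e-05), and 0.67 on log2(TPM + 1) (limma adjusted p = 0.083). Ptges, a prostaglandin E synthase, rose by 0.34 (SE 0.08) and Slco2a1, a prostaglandin transporter, by 0.36 (SE 0.09), the latter a call lost without Dor WT replicate 2 (edgeR adjusted p = 0.055). Ptges3 had a log2 fold change of -0.16 (SE 0.05), a call lost without Dor WT replicate 1 (edgeR adjusted p = 0.057) or Dor cKO replicate 2 (edgeR adjusted p = 0.142). Hpgds, the other prostaglandin D synthase, had 10.2 and 10.5 CPM against 11.6 and 13.3 CPM, and its log2 fold change was 0.26 (SE 0.13, edgeR adjusted p = 0.155). It was called with the length and GC trend removed (edgeR adjusted p = 0.038).

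**Figure D5:**
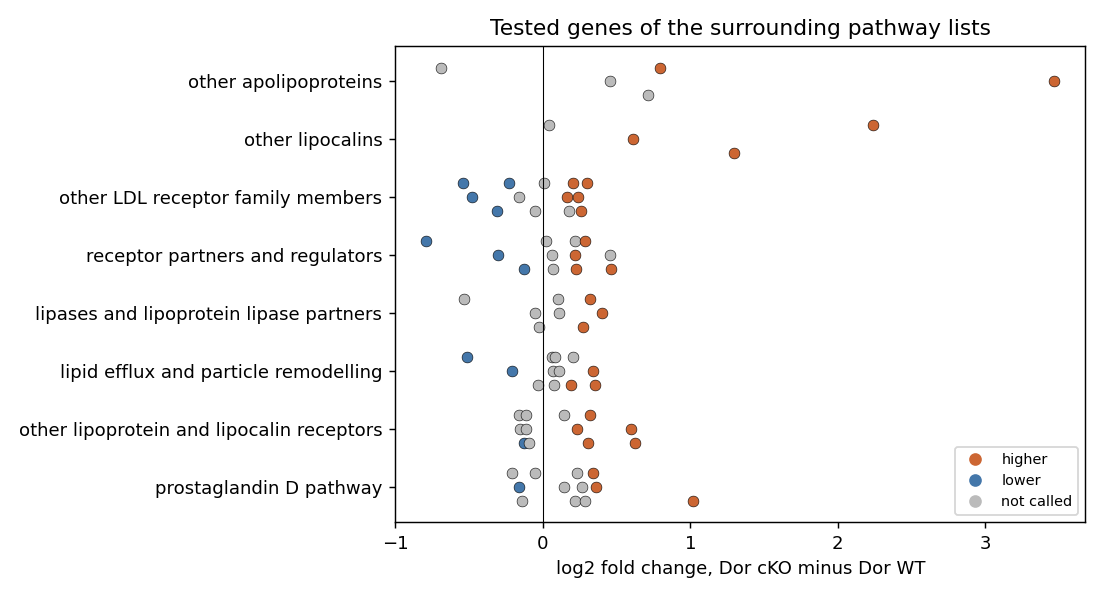
The x axis gives the log2 fold change, Dor cKO minus Dor WT, of each tested gene, 1 row for each of 8 lists, with orange for genes called higher, blue for genes called lower and grey for genes not called. Called genes lie on both sides of 0 in the receptor family, partner, efflux, other receptor and prostaglandin D lists. They lie only to the right in the apolipoprotein, lipocalin and lipase lists.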

How the data were processed

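RNA from optic nerves was sequenced as stranded mRNA libraries with paired reads, per the labels' protocols. RSEM 1.3.1, STAR 2.7.9a, Trimmomatic 0.36 and the build GRCm38 are listed in the submitters' processing notes, with no annotation release. Each deposited table holds, per the file headers, an expected count and a TPM per gene, with other values (length, effective length and the posterior SD of the count). The deposited TPM values are scaled by the authors' pipeline to 1 total per library. Whether counting used strand is not given in the sources used here.

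Expected counts were rounded to whole numbers. Genes were filtered with filterByExpr (minimum count 10, minimum total count 15), scaled by TMM and tested with edgeR 4.0.16 (quasi-likelihood, robust) in R 4.3.3, with Benjamini-Hochberg adjustment over the 16751 genes tested. CPM here is the count scaled to the TMM-adjusted library size. The SE of a log2 fold change is its absolute value divided by the square root of the edgeR F statistic. For Apod and Ptgds it is given as a description and is not read as a test. The fit was run on counts simulated at a coefficient of variation of 0.035, close to the value estimated from these libraries. Such a run cannot show whether calls hold at a wider spread. Symbols and coordinates came from a GENCODE table of the same build, and 55141 of 55401 identifiers matched. The members and lists were chosen with earlier results of these data known. Genes named from a list were its called members of at least 5 CPM, up to 4 by mean CPM, and any named beyond that were picked after their values were seen. Same-numbered libraries did not deviate together (r = 0.0717 over 12320 genes), so the numbers were not treated as pairs. Alternatives used DESeq2 1.42.0, limma 3.58.1 on log2(TPM + 1), other scalings and filters, and each library left out.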

Additional observations from a re-analysis of the deposited data

How the results depend on the processing

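None of the 9 genes changed sign in the 15 alternatives. The counts over all genes, 2399 higher and 2248 lower, were 1539 and 1383 by DESeq2, 666 and 722 by limma on log2(TPM + 1), and 703 and 891 at a fixed coefficient of variation of 0.1. Pathway calls, 28 higher and 11 lower, were 9 and 2 by limma and 9 and 4 at that coefficient, and DESeq2 called 7 lower. Leaving out each library gave 1782 to 2184 higher, 1670 to 2073 lower, 23 to 26 pathway genes higher and 7 to 9 lower, the 7 being without Dor cKO replicate 2. The replicate block gave 2562 higher and 2409 lower, with 29 and 12 in the pathway, and ended no call of the 9 genes. At a coefficient of variation of 0.1 the calls of Apoe (edgeR adjusted p = 0.241), Clu (0.304), Lrp1 (0.288) and Lrp8 (0.120) ended, so these calls rest on the small spread between the libraries, a common coefficient of 0.035. Soat1 turned from higher to -0.17 by limma (adjusted p = 0.582). The cause of these shifts was not tested. Depth limits Apoc1 and the low lipocalins, with 30 to 65 counts of Apoc1 per library.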
